A study of Homo sapiens with 28 samples.

Results

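Integrated stress and heat shock genes were followed here in human embryonic stem cells and their neural derivatives, as the 10 genes ATF3, DDIT3, TRIB3, CHAC1, ASNS, HSPA5, HSPA1A, HSPA1B, DNAJB1 and GADD45A. They were taken by gene name from a deposited expression table of 58219 genes, in which all 10 were found, and all 10 passed the filter on low values. The study sequenced poly(A)-selected RNA from H9, an established human embryonic stem cell line, either SOX1-/- (KO) or wild type (WT). SOX1 is a transcription factor of early neural progenitors, and the series title names regional identity of such progenitors as its subject. Cells were sampled on day 0 as undifferentiated cells (ES) and on days 4 and 8 under 1 of 3 culture labels, written IWP2, CT0.4 and CT1.0. IWP2 blocks the secretion of WNT ligands, whereas the labels leave CT unexplained and its number without a unit.

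The 14 groups were KO and WT ES cells, and KO and WT cells under IWP2, under CT0.4 and under CT1.0 on day 4 and on day 8, with 2 libraries in each. All KO libraries carry the number 26 or 48 and all WT libraries the number 1 or 2, which were read as 4 lines. The labels do not say whether a line is 1 clone or whether libraries came from separate cultures, so p-values reflect only how far these libraries scatter, which may be technical. All values are TPM, an abundance scaled for transcript length and library total. Differences were tested with limma on log2(TPM + 1), with Benjamini-Hochberg adjustment over 27912 genes, and genes were called at an adjusted p under 0.05. The log2(TPM + 1) scale understates the change of low genes such as TRIB3 and DDIT3.

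The integrated stress response is entered when kinases that sense amino acid shortage, misfolded protein in the endoplasmic reticulum (ER), viral RNA or lack of heme phosphorylate the initiation factor eIF2. General translation then slows while the transcription factor ATF4 is translated, and ATF4 with its partners raises ATF3, DDIT3 (CHOP), TRIB3, CHAC1 and ASNS. The unfolded protein response raises the ER chaperone HSPA5 (BiP), and the heat shock response, driven by HSF1, raises the cytosolic HSP70 chaperones HSPA1A and HSPA1B and their co-chaperone DNAJB1. GADD45A is a growth arrest and DNA damage gene that p53 and stress signals can both raise.

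SOX1 itself, the check of the genotype labels, was at 0.705 and 3.08 TPM in KO libraries and at 84.1 and 98.0 TPM in WT libraries under CT1.0 on day 4. On day 8 under CT1.0 it was at 1.14 and 2.77 TPM in KO and at 72.1 and 79.4 TPM in WT. Under IWP2 on day 4 SOX1 was at 0.410 and 1.14 TPM in KO and at 0.907 and 0.990 TPM in WT. These overlap, so the labels could not be checked by SOX1 there. Summed pluripotency markers were 707 to 1421 TPM on days 4 and 8 and 4269 to 4435 TPM in the ES libraries, while summed neural progenitor markers were 703 to 1763 TPM on days 4 and 8 and 269 to 356 TPM in ES cells. SOX2 counts in both sums. The pluripotency markers NANOG and TDGF1 were under 1 TPM in both libraries of every group on days 4 and 8. The 4 WT libraries of CT0.4 and CT1.0 on day 4 stood apart from the rest, with 17694 to 18233 genes at 1 TPM or more, where the other 24 had 18876 to 20338. Calls that rest on them are set below beside median-ratio scaling where it ended the call or moved the value by over 1.5 times. Scaling moved the median KO minus WT difference of all genes by -0.13 under CT0.4 and by -0.18 under CT1.0 on day 4 (log2).

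The upstream sequences of 5 of the genes are shown because each holds the letters of the response element its pathway is known for. They are the 250 bases before the start site from RefSeq on GRCh38.p14, written 5′ to 3′ on the gene's strand, with the matched motif in capitals. The motifs searched on both strands were the C/EBP-ATF response element TGATGNAA, the ER stress response element (CCAAT, then CCACG after 9 bases), the heat shock element GAANNTTC, its forms with a further GAA or TTC unit, and the cAMP response element TGACGTCA.
CHAC1: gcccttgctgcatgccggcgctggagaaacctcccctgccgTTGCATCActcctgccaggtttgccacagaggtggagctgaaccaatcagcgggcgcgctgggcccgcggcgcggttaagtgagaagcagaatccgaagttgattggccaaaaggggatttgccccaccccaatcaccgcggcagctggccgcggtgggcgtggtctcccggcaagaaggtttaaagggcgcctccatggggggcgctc
ASNS: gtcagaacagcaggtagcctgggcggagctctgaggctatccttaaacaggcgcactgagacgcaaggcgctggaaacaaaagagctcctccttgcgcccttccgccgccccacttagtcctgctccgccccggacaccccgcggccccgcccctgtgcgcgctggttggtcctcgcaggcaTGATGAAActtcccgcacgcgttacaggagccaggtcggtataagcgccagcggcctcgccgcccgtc
HSPA5: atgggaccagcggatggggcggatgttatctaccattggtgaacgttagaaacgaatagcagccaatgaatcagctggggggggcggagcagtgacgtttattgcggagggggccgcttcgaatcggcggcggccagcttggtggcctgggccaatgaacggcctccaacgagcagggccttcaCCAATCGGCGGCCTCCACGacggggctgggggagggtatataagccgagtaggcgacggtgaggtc
HSPA1A: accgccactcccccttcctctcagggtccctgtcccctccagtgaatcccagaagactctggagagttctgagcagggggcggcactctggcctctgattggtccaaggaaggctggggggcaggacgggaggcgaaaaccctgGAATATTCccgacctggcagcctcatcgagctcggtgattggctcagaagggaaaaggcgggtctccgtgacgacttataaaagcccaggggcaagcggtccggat
HSPA1B: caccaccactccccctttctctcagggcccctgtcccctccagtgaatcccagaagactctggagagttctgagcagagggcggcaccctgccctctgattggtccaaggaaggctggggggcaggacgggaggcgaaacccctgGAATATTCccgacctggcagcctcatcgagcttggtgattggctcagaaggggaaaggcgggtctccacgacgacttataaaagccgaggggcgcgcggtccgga
The CHAC1 window, chr15:40953221-40953470 on the plus strand, holds TTGCATCA at -209 to -202 from the start site, which is TGATGNAA read on the other strand. The ASNS window, chr7:97872409-97872658 on the minus strand, holds TGATGAAA at -68 to -61, and the heat shock letters GAAACTTC at -64 to -57 overlap it. The HSPA5 window, chr9:125241344-125241593 on the minus strand, holds the ER stress element at -66 to -48. HSPA1A, chr6:31815293-31815542, and HSPA1B, chr6:31827488-31827737, both on the plus strand, hold GAATATTC at -106 to -99 and at -105 to -98, and these 250 bases are 94.4% identical between the paralogs. Over 35116 windows of 300 bases around human start sites, TGATGNAA was found in 3.62%, the ER stress element in 0.0769%, GAANNTTC in 6.77%, each form with a further unit in 0.490%, and TGACGTCA in 1.85%. Of the other genes, ATF3 had TGATGGAA at -191 to -184 in 1 of 2 windows, DNAJB1 had GAANNTTC in 2 of 3 windows, and the 2 windows of DDIT3 and 3 of TRIB3 held none of these letters. GADD45A had no window to search. No window of the genes searched held a heat shock form with a further unit or TGACGTCA. A match is a description of these letters and was not tested as a binding site.

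The genes are spread over the genome, at positions given here on hg38 from GENCODE 29. ATF3 lies at chr1:212565334-212620777 and GADD45A at chr1:67685061-67688338, both on the plus strand. DDIT3 lies at chr12:57516588-57521737 on the minus strand, TRIB3 at chr20:362835-397559 and CHAC1 at chr15:40952962-40956519 on the plus strand, and ASNS at chr7:97852118-97872542 on the minus strand. HSPA5 lies at chr9:125234853-125241330 and DNAJB1 at chr19:14514770-14529770, both on the minus strand. HSPA1A at chr6:31815464-31817946 and HSPA1B at chr6:31827735-31830255 are neighbours on the plus strand, and their longest transcripts are identical at 2298 of 2396 aligned bases, or 95.9%. How reads were split between these paralogs is therefore uncertain, and their sum is given beside them.

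The 10 genes differed widely in level and in how far they moved. HSPA5 was the highest of the 10, at 125 to 272 TPM over the 28 libraries, and TRIB3, a pseudokinase that binds ATF4, was the lowest, at 0.805 to 9.23 TPM. From the lowest to the highest library, CHAC1 spanned 28.4-fold, GADD45A 13.3-fold, TRIB3 11.5-fold, ATF3 10.3-fold and DDIT3 7.08-fold. ASNS spanned 5.93-fold, HSPA1B 4.77-fold, HSPA1A 4.33-fold, HSPA5 2.18-fold and DNAJB1 2.03-fold. The chaperones were thus the steadiest of the 10 and the ATF4 targets and GADD45A the most variable. When the 14 groups were put in order of their means, 7 of the 13 neighbouring pairs had libraries that did not overlap for GADD45A and HSPA1B, 6 for TRIB3 and HSPA1A, 5 for ATF3 and CHAC1, 4 for HSPA5, 3 for DDIT3 and 2 for ASNS and DNAJB1. The same count was not made over all genes. These numbers therefore only describe the order and do not set the 10 genes apart from others.

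**Figure D1:**
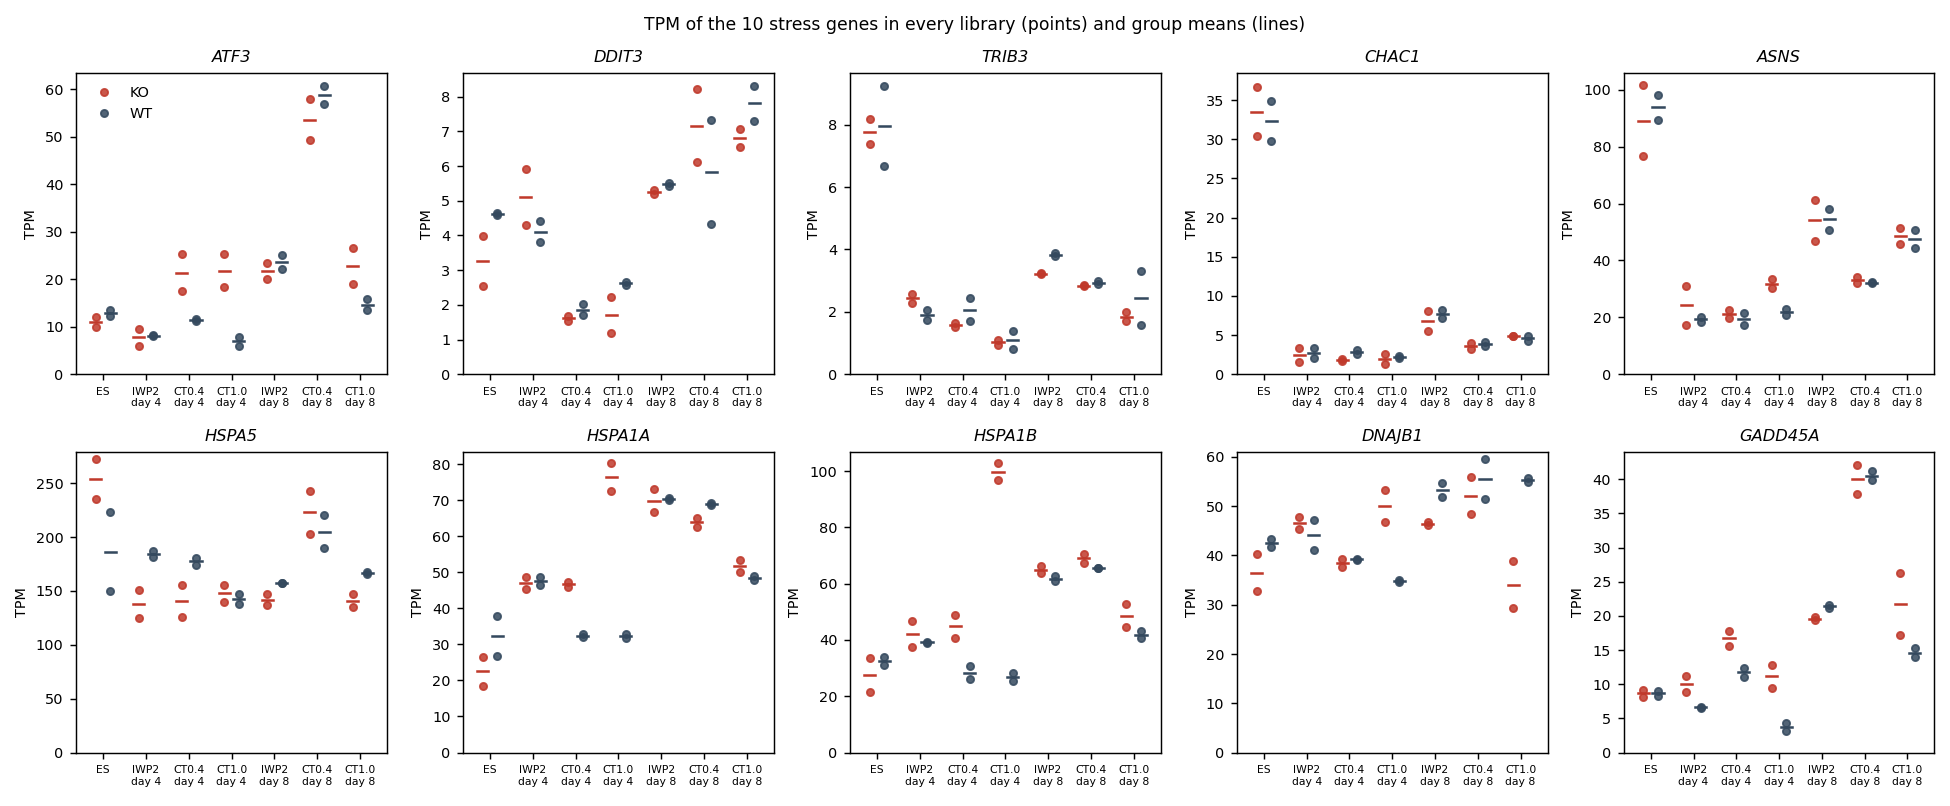
TPM (y axis) of each of the 10 genes in all 28 libraries, by group (x axis, KO left of WT). Each point is 1 library. CHAC1 and ASNS are highest in ES cells, HSPA1A and HSPA1B have their highest mean in KO cells under CT1.0 on day 4, and ATF3 and GADD45A are highest under CT0.4 on day 8.

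Loss of SOX1 was compared first in undifferentiated cells, where SOX1 was at 0.0238 and 0.0510 TPM in KO and at 0.264 and 0.177 TPM in WT. None of the 10 genes was called between KO and WT ES cells by limma, where 0.219% of all tested genes were called, and 2 of the 10 had an unadjusted p under 0.05. These were HSPA5, at 272 and 235 TPM in KO and 150.0 and 223 TPM in WT, and HSPA1A, at 18.6 and 26.5 TPM in KO and 37.8 and 26.9 TPM in WT. In neither gene did the KO and WT libraries overlap, but line 2 of WT lay close to the KO values in both. HSPA5 differed by 0.47 ± 0.15 (log2, SE, adjusted p = 0.245), and by 0.75 without the library of line 2 (adjusted p = 0.0149). HSPA1A differed by -0.50 ± 0.14 (adjusted p = 0.158), and by -0.74 without that library (adjusted p = 0.0120).

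Under IWP2 none of the 10 genes was called between KO and WT on day 4, where 0.043% of tested genes were called, and none on day 8, where 0.0609% were. At an unadjusted p under 0.05, 2 genes passed on day 4, HSPA5 and GADD45A, and 0 on day 8. HSPA5 was at 125 and 151 TPM in KO and at 187 and 182 TPM in WT on day 4, and GADD45A was at 8.93 and 11.2 TPM in KO and at 6.495 and 6.72 TPM in WT. HSPA1A was nearly level on day 4, at 45.3 and 48.7 TPM in KO and 48.7 and 46.4 TPM in WT.

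Under CT1.0 on day 4, where WT cells express SOX1 most, 5 of the 10 genes were higher in KO than in WT and none was lower. Of all tested genes 14.9% were called there, and 12.4% were called higher in KO, as 3453 higher and 694 lower, which became 1764 and 2537 after scaling. The median difference of the 10 genes was 0.52 and that of all genes 0.19 (log2). The 5 were ATF3, HSPA1A, HSPA1B, DNAJB1 and GADD45A, so the HSP70 pair and its co-chaperone, the transcription factor ATF3 and the growth arrest gene rose, while CHAC1, TRIB3, DDIT3, ASNS and HSPA5 did not pass the test. These are bulk libraries, in which more cells of a type and more RNA per cell cannot be told apart.

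The transcription factors of the group parted under CT1.0 on day 4. ATF3, a stress-induced repressor and activator of the CREB family, was at 25.3 and 18.4 TPM in KO and at 5.96 and 7.91 TPM in WT. Both KO libraries lay above both WT libraries, by more than the spread within either group. The difference was 1.52 ± 0.22 (log2, SE, n = 2 and 2, adjusted p = 0.000261), and 1.28 after scaling (adjusted p = 0.000631). DDIT3, the pro-apoptotic factor CHOP, was at 1.18 and 2.23 TPM in KO and at 2.58 and 2.67 TPM in WT. Its KO libraries both lay below WT, but the difference of -0.45 ± 0.23 did not pass (adjusted p = 0.221), nor did the -0.65 after scaling (adjusted p = 0.0745).

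The ATF4 targets of metabolism did not pass under CT1.0 on day 4. ASNS, asparagine synthetase, was at 30.2 and 33.6 TPM in KO and at 20.9 and 22.9 TPM in WT. The groups did not overlap, and the difference was 0.52 ± 0.20 (adjusted p = 0.0921), and 0.26 after scaling (adjusted p = 0.402). CHAC1, which degrades glutathione, was at 1.29 and 2.62 TPM in KO and at 2.31 and 2.04 TPM in WT, and TRIB3 was at 1.11 and 0.938 TPM in KO and at 0.805 and 1.39 TPM in WT. For both genes the KO and WT libraries overlapped. HSPA5 was at 155 and 140.1 TPM in KO and at 137 and 147 TPM in WT, which overlap, with a difference of 0.05 ± 0.15 (adjusted p = 0.898), and -0.21 after scaling (adjusted p = 0.385).

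HSPA1B had the largest difference of the 5 called genes and DNAJB1 the smallest. HSPA1A was at 80.4 and 72.6 TPM in KO and at 31.8 and 32.9 TPM in WT under CT1.0 on day 4. HSPA1B was at 103 and 96.7 TPM in KO and at 25.4 and 28.3 TPM in WT. Both KO libraries lay far above WT in both paralogs, and for HSPA1B they were the highest of all 28. The differences were 1.22 ± 0.14 for HSPA1A (adjusted p = 3.56e-05) and 1.86 ± 0.15 for HSPA1B (adjusted p = 4.12e-06). The sum of both was 183 and 169 TPM in KO and 57.1 and 61.1 TPM in WT, a difference of 1.56 ± 0.13 (adjusted p = 4.94e-06). After scaling the differences were 0.95 for HSPA1A and 1.60 for HSPA1B, and both stayed called. HSPA1B stood at 1.28 and 1.33 times HSPA1A in the KO libraries and at 0.798 and 0.859 times in the WT libraries, where the split of reads between the paralogs is uncertain. DNAJB1, the HSP40 that hands substrates to HSP70, was at 53.3 and 46.9 TPM in KO and at 34.5 and 35.0 TPM in WT. Its groups did not overlap and the difference was 0.51 ± 0.12 (adjusted p = 0.00926). That call ended without line 26 of KO (0.42, adjusted p = 0.105), without line 1 of WT (0.50, adjusted p = 0.0596) and after scaling (0.25, adjusted p = 0.159).

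GADD45A was at 12.8 and 9.42 TPM in KO and at 4.28 and 3.17 TPM in WT under CT1.0 on day 4. The KO values lay within the 8.93 to 17.8 TPM of the KO libraries of day 4, while the 2 WT libraries were the lowest of all 28 for this gene. The difference was 1.36 ± 0.17 (adjusted p = 0.000107), and 1.14 after scaling (adjusted p = 0.000482). The calls of ATF3, HSPA1A, HSPA1B and GADD45A held when each of the 4 libraries was left out in turn, with a highest adjusted p of 0.00820 for ATF3. With the model fitted to these 4 libraries alone, the calls of HSPA1A (adjusted p = 0.0480) and HSPA1B (adjusted p = 0.0334) held and the other 3 did not. Markers of cell types moved in the same comparison. Summed neural progenitor markers were 708 to 897 TPM in KO and 1116 to 1223 TPM in WT, with 2 of 9 called higher and 4 lower. Summed neuron markers were 104 to 120 TPM in KO and 147 to 153 TPM in WT, and summed surface ectoderm markers were 119 to 139 TPM in KO and 99.3 to 111 TPM in WT. Of the surface ectoderm markers, GATA3 and TP63 were under 1 TPM in both genotypes here, and TFAP2C in WT. Their sum was 542 to 609 TPM in ES libraries, so it does not mark surface ectoderm alone. The part of these marker sums in these results was not tested.

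Under CT0.4 on day 4, 3 of the 10 genes were higher in KO and none lower, where 4.24% of tested genes were called and 3.67% were higher, as 1025 higher and 158 lower, which became 465 and 1031 after scaling. ATF3 was at 17.6 and 25.3 TPM in KO and at 11.2 and 11.6 TPM in WT, a difference of 0.83 ± 0.22 (adjusted p = 0.0403). HSPA1A was at 47.4 and 45.9 TPM in KO and at 33.0 and 31.9 TPM in WT, a difference of 0.51 ± 0.14 (adjusted p = 0.0425). HSPA1B was at 49.0 and 40.8 TPM in KO and at 26.2 and 30.6 TPM in WT, a difference of 0.64 ± 0.15 (adjusted p = 0.0275). In all 3 genes the KO libraries lay above the WT libraries, but the calls were fragile. Leaving out any of the 4 libraries, line 26 or 48 of KO or line 1 or 2 of WT, ended those of ATF3 (adjusted p = 0.0529 to 0.235) and HSPA1A (0.103 to 0.198), and leaving out line 26 of KO or line 1 of WT ended that of HSPA1B (0.215 and 0.237). All 3 also ended after scaling (adjusted p = 0.0826, 0.202 and 0.0950, for ATF3, HSPA1A and HSPA1B in that order) and without the filter on low values (0.0928, 0.0918 and 0.0639). HSPA5 was at 126 and 156 TPM in KO and at 174 and 181 TPM in WT, a difference of -0.34 ± 0.15 (adjusted p = 0.233) that passed after scaling (-0.54, adjusted p = 0.0437).

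On day 8 the HSP70 pair was not called, and DNAJB1 was lower in KO under CT1.0. Under CT0.4 none of the 10 was called between KO and WT, where 0.416% of tested genes were, and 0 had an unadjusted p under 0.05. Under CT1.0 DNAJB1 alone was called, lower in KO, where 14.3% of tested genes were called and 9.96% were lower, as 1210 higher and 2779 lower, which became 1635 and 1887 after scaling. This 1 of the 10 is near the share of all genes called lower, and the call ended in the fit to its 4 libraries alone. DNAJB1 was at 29.4 and 38.8 TPM in KO and at 55.7 and 55.0 TPM in WT, so that both KO libraries lay well below WT. The difference was -0.70 ± 0.12 (adjusted p = 0.00132), -0.58 after scaling, and it stayed called with each of the 4 libraries left out in turn. HSPA1A was at 50.2 and 53.4 TPM in KO and at 47.9 and 49.0 TPM in WT on day 8, ATF3 at 26.6 and 19.1 TPM in KO and at 15.9 and 13.4 TPM in WT, and GADD45A at 26.3 and 17.1 TPM in KO and at 15.2 and 13.95 TPM in WT. In these 3 genes the KO libraries lay above WT, but ATF3 (0.59 ± 0.22, adjusted p = 0.0839) and GADD45A (0.51 ± 0.17, adjusted p = 0.0596) did not pass. Ribosomal protein genes made up 31.7% and 29.03% of the TPM in these KO libraries and 22.6% and 24.1% in WT, and summed neuron markers were 152 to 348 TPM in KO and 648 to 795 TPM in WT. Summed neural progenitor markers were 703 to 1008 TPM in KO and 1669 to 1763 TPM in WT, those of neural crest 50.3 to 52.9 TPM in KO and 22.5 to 29.4 TPM in WT, and those of surface ectoderm 77.0 to 105 TPM in KO and 44.7 to 56.1 TPM in WT. GATA3 and TP63 were again under 1 TPM in both genotypes, and TFAP2C in WT. The neural crest markers SOX10 and FOXD3 were under 1 TPM in both WT libraries. The part of these marker sums in the DNAJB1 result was not tested.

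**Figure D2:**
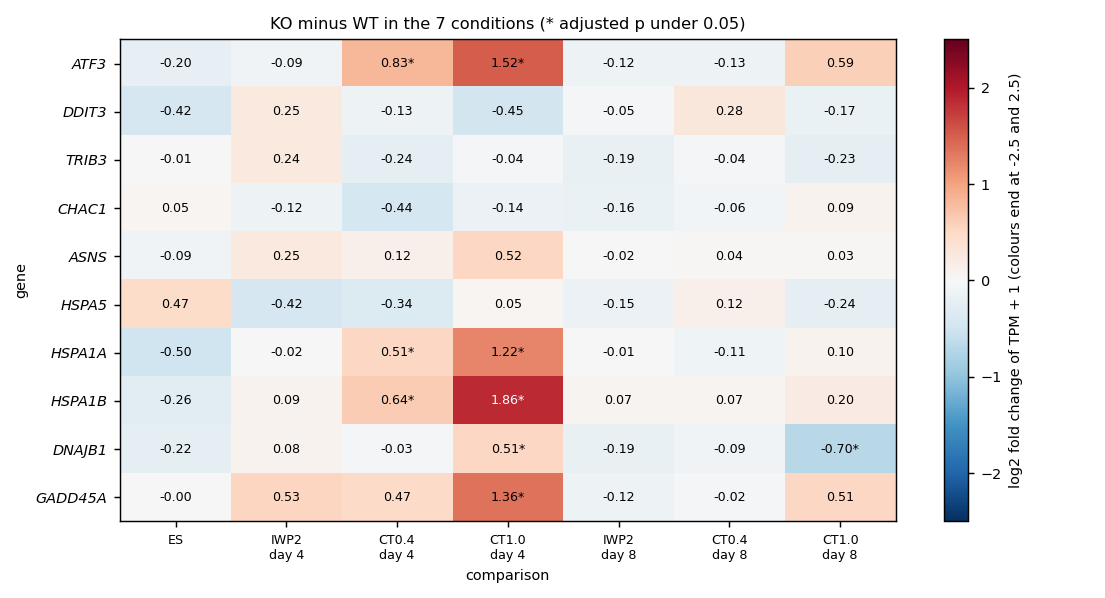
KO minus WT difference (colour, log2 of TPM + 1) of the 10 genes (rows) in the 7 conditions (columns), with called cells starred. Called cells stand in the CT0.4 and CT1.0 columns of day 4, all higher in KO, and for DNAJB1 under CT1.0 on day 8, lower in KO.

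Whether the KO effect itself differed between labels or days was tested as an interaction. On day 4 the KO minus WT difference was larger under CT1.0 than under IWP2 for HSPA1B, by 1.77 ± 0.22 (adjusted p = 0.000427), for ATF3, by 1.61 ± 0.31 (adjusted p = 0.00674), and for HSPA1A, by 1.23 ± 0.19 (adjusted p = 0.00179), where 5.09% of tested genes were called and 4.41% were higher. For the sum of the HSP70 pair it was larger by 1.52 ± 0.19 (adjusted p = 0.000429). Under CT1.0 the KO minus WT difference was smaller on day 8 than on day 4 for HSPA1B (-1.65 ± 0.22, adjusted p = 0.000640), HSPA1A (-1.12 ± 0.19, adjusted p = 0.00353) and DNAJB1 (-1.21 ± 0.17, adjusted p = 0.00114), where 7.56% were called and 6.67% were lower. GADD45A also passed (-0.84 ± 0.25, adjusted p = 0.0466), but not after scaling (adjusted p = 0.319) and not without any of 6 of the 8 libraries (adjusted p = 0.0534 to 0.179), which were line 26 of KO on day 4, line 48 of KO on day 8 and lines 1 and 2 of WT on both days. The other 6 of these 7 interaction calls held after scaling, which moved the median of all genes by -0.19 for CT1.0 less IWP2 and by 0.28 for day 8 less day 4, and with each library left out in turn. As means of the lines over the 3 labels, ATF3 (0.75 ± 0.12, adjusted p = 0.0396) and GADD45A (0.79 ± 0.10, adjusted p = 0.0227) were higher in KO on day 4, where 0.856% of tested genes were called and 0.82% were higher. Both calls ended without any of the 4 lines, 26 or 48 of KO or 1 or 2 of WT (adjusted p = 0.123 to 0.333 for ATF3 and 0.0987 to 0.295 for GADD45A), after scaling (0.0573 and 0.0552) and with a replicate block (0.0870 and 0.0585), and none of the 10 genes was called on day 8, where 0% of tested genes were and 1 of the 10 had an unadjusted p under 0.05. In the other 5 interactions limma called none of the 10. For CT0.4 less IWP2, 1.34% of tested genes were called on day 4 and 0.147% on day 8, with 3 and 0 of the 10 at an unadjusted p under 0.05. For CT1.0 less IWP2 on day 8 it was 3.22%, with 3 of the 10, for day 8 less day 4 under IWP2 0.0537%, with 1, and under CT0.4 0.838%, with 4.

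The culture labels were next compared within a genotype. In KO cells on day 4, CT1.0 set against IWP2 raised ATF3 by 1.397 ± 0.22 (adjusted p = 0.000384), HSPA1A by 0.69 ± 0.14 (adjusted p = 0.00252) and HSPA1B by 1.23 ± 0.15 (adjusted p = 4.58e-05). DDIT3 fell by 1.19 on the log2 scale (SE 0.23, adjusted p = 0.00247). These differences use none of the WT libraries that stood apart, but their p-values draw on the spread within all 28 libraries. The calls held with each of the 4 libraries left out in turn. In fits to the libraries compared alone, 1 of the 14 calls between labels in KO over both days remained. Of all tested genes 13.8% were called for CT1.0 against IWP2 on day 4, 5.27% higher and 8.54% lower. ATF3 was at 25.3 and 18.4 TPM under CT1.0 and at 5.91 and 9.62 TPM under IWP2 in KO cells, and DDIT3 at 1.18 and 2.23 TPM under CT1.0 and at 4.31 and 5.91 TPM under IWP2. So in the same KO cells the pair of stress factors stood on opposite sides, with no overlap of libraries in either. TRIB3 was also lower under CT1.0 (-0.76 ± 0.23, adjusted p = 0.0322), a call that ended without any of the 4 libraries, lines 26 and 48 under either label (adjusted p = 0.0767 to 0.167). Under CT0.4 against IWP2 on day 4, KO cells had ATF3 higher by 1.37 ± 0.22 (adjusted p = 0.000786), GADD45A higher by 0.68 ± 0.17 (adjusted p = 0.0310) and DDIT3 lower (-1.22 ± 0.23, adjusted p = 0.00417), where 4.8% of tested genes were called, 2.28% higher and 2.53% lower. The DDIT3 call ended without line 48 under IWP2 (adjusted p = 0.0745), and that of GADD45A without line 26 under IWP2 or line 26 or 48 under CT0.4 (adjusted p = 0.0593 to 0.219) and without the filter (0.0590).

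In WT cells on day 4 the HSP70 pair went the other way. HSPA1A was at 31.8 and 32.9 TPM under CT1.0 and at 48.7 and 46.4 TPM under IWP2, and HSPA1B at 25.4 and 28.3 TPM under CT1.0 and at 39.4 and 39.0 TPM under IWP2. In both the CT1.0 libraries lay below, by -0.54 ± 0.14 (adjusted p = 0.00893) and -0.53 ± 0.15 (adjusted p = 0.02003), where 20% of tested genes were called and 17.2% were lower, as 788 higher and 4808 lower, which became 1788 and 1541 after scaling. Scaling, which moved the median difference of all genes by 0.22 there, left -0.21 for both, neither called (adjusted p = 0.369 and 0.455). GADD45A was at 4.28 and 3.17 TPM under CT1.0 and at 6.495 and 6.72 TPM under IWP2 (-0.70 ± 0.17, adjusted p = 0.00883), and this too ended after scaling (-0.42, adjusted p = 0.152). Leaving out line 1 under either label ended the calls of HSPA1A (adjusted p = 0.0618 and 0.0646), line 2 under either label that of GADD45A (0.0509 and 0.107), and line 1 or 2 under IWP2 or line 1 under CT1.0 that of HSPA1B (0.0760 to 0.144). Under CT0.4 against IWP2, where 13.1% of tested genes were called, 2.45% higher and 10.6% lower, GADD45A was higher in WT cells (0.74 ± 0.17, adjusted p = 0.00843), while HSPA1A (-0.54 ± 0.14, adjusted p = 0.0133) and DDIT3 (-0.84 ± 0.23, adjusted p = 0.0242) were lower. HSPA1A and DDIT3 both ended after scaling (adjusted p = 0.179 and 0.0822), where the median of all genes moved by 0.14, and without any of the 4 libraries, lines 1 and 2 under either label (0.0509 to 0.0872 and 0.0574 to 0.179). GADD45A stayed called after scaling (0.96, adjusted p = 0.00171) and ended without line 1 under IWP2 or line 2 under CT0.4 (0.0562 and 0.0657).

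On day 8 both genotypes shared a rise of ATF3 and GADD45A under CT0.4. ATF3 was at 49.3 and 57.9 TPM in KO and at 60.6 and 56.8 TPM in WT under CT0.4, and at 20.0 and 23.5 TPM in KO and at 25.2 and 22.2 TPM in WT under IWP2. GADD45A was at 37.9 and 42.1 TPM in KO and at 41.3 and 39.8 TPM in WT under CT0.4, and at 19.4 and 19.8 TPM in KO and at 21.6 and 21.2 TPM in WT under IWP2. Every CT0.4 library lay above every IWP2 library in both genes, and the KO and WT libraries overlapped within CT0.4. The CT0.4 minus IWP2 differences were 1.26 ± 0.22 in KO (adjusted p = 0.000447) and 1.28 ± 0.22 in WT (adjusted p = 0.000572) for ATF3, and 0.99 ± 0.17 in KO (adjusted p = 0.000547) and 0.89 ± 0.17 in WT (adjusted p = 0.00196) for GADD45A. They held with each library left out in turn and after scaling, where 16.5% of tested genes were called in KO, 8.61% higher and 7.89% lower, and 12.2% in WT, 6.29% higher and 5.89% lower. Summed pluripotency markers were 730 to 800 TPM under CT0.4 and 1150 to 1190 TPM under IWP2 in KO, and 813 to 825 TPM under CT0.4 and 1238 to 1239 TPM under IWP2 in WT. Those of neural crest were 35.1 to 64.0 TPM under CT0.4 and 6.16 to 7.33 TPM under IWP2 in KO, and 19.5 to 28.5 TPM under CT0.4 and 6.34 to 7.17 TPM under IWP2 in WT. SOX10, FOXD3 and TFAP2A were under 1 TPM in WT under CT0.4 and in both genotypes under IWP2. The neural crest sum was 30.0 to 37.9 TPM in ES libraries. NANOG and TDGF1 were under 1 TPM in all these groups, and L1TD1 under CT0.4 in both genotypes. The part of these marker sums in these results was not tested. ASNS was lower under CT0.4 in both genotypes (-0.68 ± 0.20, adjusted p = 0.0260, in KO and -0.74 ± 0.20, adjusted p = 0.0210, in WT), and HSPA5 was higher in KO (0.64 ± 0.15, adjusted p = 0.00572). CHAC1 was lower in WT (-0.85 ± 0.26, adjusted p = 0.0399). The ASNS call in WT and that of CHAC1 ended without any of the 4 libraries, lines 1 and 2 under either label (adjusted p = 0.0519 to 0.152 and 0.105 to 0.191). That of ASNS in KO ended without line 48 under IWP2 or line 26 or 48 under CT0.4 (0.0798 to 0.235), and that of HSPA5 without line 48 under CT0.4 (0.0813). Under CT1.0 against IWP2 on day 8, 2 of the 10 genes were lower in KO, HSPA1A and DNAJB1, where 20.5% of tested genes were called and 16.7% were lower, and 2 in WT, HSPA1A and HSPA1B, where 10.8% were called and 7.82% were lower. None of these 4 calls held after scaling, with adjusted p from 0.0890 to 0.537, where the median of all genes moved by 0.16 in KO. The HSPA1A call in KO and the HSPA1A and HSPA1B calls in WT also ended without any of their 4 libraries (adjusted p = 0.0621 to 0.199, 0.0718 to 0.0964 and 0.0848 to 0.155), and that of DNAJB1 without line 26 or 48 under IWP2 or line 26 under CT1.0 (0.0515 to 0.237).

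Time gave the largest changes of the 10 genes. From ES to day 4 under IWP2, 3 of the 10 rose and 4 fell in KO, where 34.7% of tested genes were called, 19.4% higher and 15.3% lower. In WT 1 rose and 4 fell, where 35.2% were called, 20.3% higher and 14.9% lower. Under CT0.4, 4 rose and 5 fell in KO (36.3% called, 19.4% higher and 16.9% lower), and 0 rose and 4 fell in WT (29.9% called, 17.7% lower). Under CT1.0, 4 rose and 5 fell in KO (38.4% called, 20% higher and 18.4% lower), and 0 rose and 6 fell in WT (31% called, 20.8% lower). From day 4 to day 8 under IWP2, 6 rose in KO (9.72% called, 6.87% higher) and 7 in WT (13.8% called, 8.97% higher). Under CT0.4, 8 rose in KO (21.5% called, 14.4% higher) and 7 in WT (24.8% called, 19.7% higher). Under CT1.0, 3 rose and 3 fell in KO (11% called, 4.16% higher and 6.87% lower), the only falls of this step, and 8 rose in WT (14.7% called, 12.2% higher). Under CT0.4 and CT1.0 in WT, where scaling moved the median of all genes by -0.18 and -0.17 from day 4 to day 8, 5 and 5 of those 7 and 8 calls held after it. Scaling ended the rises of ASNS (0.42, adjusted p = 0.128) and DNAJB1 (0.18, adjusted p = 0.301) under CT0.4, and those of CHAC1 (0.61, adjusted p = 0.153), HSPA1A (0.29, adjusted p = 0.195) and HSPA1B (0.35, adjusted p = 0.155) under CT1.0. The KO and WT time courses share no libraries, but those of the 3 labels share the ES libraries of their genotype.

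From ES cells to day 4 the ATF4 targets of metabolism fell in both genotypes and under each label. CHAC1 was at 30.4 and 36.7 TPM in KO and at 29.8 and 34.8 TPM in WT ES cells. It was at 1.29 to 3.36 TPM in KO and at 2.04 to 3.30 TPM in WT on day 4, and at 3.21 to 8.10 TPM in KO and at 3.55 to 8.14 TPM in WT on day 8. No library of day 4 or 8 came near an ES library. ASNS was at 76.6 and 102 TPM in KO and at 98.3 and 89.5 TPM in WT ES cells, at 17.4 to 33.6 TPM in KO and 17.1 to 22.9 TPM in WT on day 4, and at 32.0 to 61.3 TPM in KO and 32.0 to 58.2 TPM in WT on day 8. TRIB3 was at 8.18 and 7.38 TPM in KO and at 6.66 and 9.23 TPM in WT ES cells, at 0.938 to 2.56 TPM in KO and 0.805 to 2.44 TPM in WT on day 4, and at 1.69 to 3.25 TPM in KO and 1.58 to 3.88 TPM in WT on day 8. In all 3 genes the ES libraries lay above every later library. The changes from ES to day 4 ran from -3.59 to -3.10 for CHAC1, from -2.23 to -1.44 for ASNS and from -2.12 to -1.36 for TRIB3 over the 6 pairs of genotype and label. All 18 of these calls held after scaling and with each library left out in turn. From day 4 to day 8 ASNS rose in 5 of the 6, by 0.63 to 1.44, and CHAC1 in 4, by 0.82 to 1.26. As given above, scaling ended those of ASNS under CT0.4 and CHAC1 under CT1.0 in WT, and it also ended that of ASNS under CT0.4 in KO (0.50, adjusted p = 0.0744). The ASNS calls under IWP2 in both genotypes and under CT1.0 in WT held with each library left out in turn. Under CT0.4 that of ASNS ended in KO without any of its 4 libraries (adjusted p = 0.0564 to 0.175) and in WT without line 1 on day 4 or line 1 or 2 on day 8 (0.0561 to 0.136). That of CHAC1 ended in KO without line 26 on day 4 or line 48 on day 8 under IWP2 (0.0775 and 0.0937) and without line 26 on day 4 or line 26 or 48 on day 8 under CT1.0 (0.0588 to 0.179). In WT it ended without line 1 on day 4 under IWP2 (0.0532) and without any of the 4 libraries under CT1.0 (0.0994 to 0.209).

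DDIT3 and ATF3, which are ATF4 targets as well, fell from ES to day 4 in some pairs of genotype and label and not in others. DDIT3 was at 2.54 and 3.99 TPM in KO and at 4.59 and 4.64 TPM in WT ES cells, and under CT0.4 at 1.53 and 1.68 TPM in KO and at 1.698 and 2.03 TPM in WT on day 4, and at 6.12 and 8.21 TPM in KO and at 7.33 and 4.32 TPM in WT on day 8. From ES to day 4 DDIT3 fell under CT0.4 (-0.69 ± 0.23, adjusted p = 0.0287, in KO and -0.97 ± 0.23, adjusted p = 0.0038, in WT) and under CT1.0 (-0.67 ± 0.23, adjusted p = 0.0326, in KO and -0.63 ± 0.23, adjusted p = 0.04997, in WT). The call in WT under CT0.4 held with each library left out in turn. In KO the call ended under CT0.4 without line 48 in ES cells or line 26 or 48 on day 4 (0.0743 to 0.270) and under CT1.0 without line 48 in ES cells or line 26 on day 4 (0.289 and 0.318). In WT under CT1.0 it ended without any of the 4 libraries, lines 1 and 2 of ES cells and day 4 (0.133 to 0.159), and after scaling (0.0946). Under IWP2 DDIT3 did not pass (0.53 in KO and -0.14 in WT). From day 4 to day 8 it rose under CT0.4 by 1.64 ± 0.23 in KO (adjusted p = 5.61e-05) and by 1.22 ± 0.23 in WT (adjusted p = 0.000824), and under CT1.0 by 1.56 ± 0.23 in KO (adjusted p = 0.000355) and by 1.28 ± 0.23 in WT (adjusted p = 0.00134). Those 4 calls held with each library left out in turn and after scaling, and under IWP2 DDIT3 did not pass, at 0.05 ± 0.23 in KO and 0.34 ± 0.23 in WT. ATF3 was at 10.01 and 12.1 TPM in KO and at 13.4 and 12.2 TPM in WT ES cells. From ES to day 4 under CT1.0 it changed by 0.91 ± 0.22 in KO (adjusted p = 0.00288) and by -0.81 ± 0.22 in WT (adjusted p = 0.00808). The call in KO ended without line 26 on day 4 (adjusted p = 0.0523), and that in WT without line 1 in ES cells or on day 4 (0.0576 and 0.0990). Under CT0.4 it changed by 0.88 ± 0.22 in KO (adjusted p = 0.00391), which ended without line 48 on day 4 (0.0729), and by -0.15 ± 0.22 in WT, not called. Under IWP2 it fell in WT (-0.60 ± 0.22, adjusted p = 0.0417), which ended without any of the 4 libraries, lines 1 and 2 of ES cells and day 4 (0.0827 to 0.172), and without the filter on low values (0.0884), and did not pass in KO (-0.49 ± 0.22). From day 4 to day 8 ATF3 rose in 5 of the 6 pairs, by 0.99 to 2.27, and did not pass in KO cells under CT1.0 (0.06 ± 0.22). The smallest of the 5, in WT under CT1.0, ended without line 1 on day 4 or day 8 (adjusted p = 0.0623 and 0.0747), and the other 4 held.

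HSPA5 fell from ES to day 4 in KO cells under IWP2 (-0.88 ± 0.15, adjusted p = 0.000178), CT0.4 (-0.85 ± 0.15, adjusted p = 0.000228) and CT1.0 (-0.77 ± 0.15, adjusted p = 0.000500), and these 3 calls held with each library left out in turn. In WT cells it changed by 0.01, -0.05 and -0.36 (SE 0.15), none called. The WT ES libraries were 150.0 and 223 TPM, which brackets 4 of the 6 WT values of day 4, and without line 1 in ES cells the WT change under CT1.0 was -0.65 (adjusted p = 0.00273). The difference between the genotypes in this change was not tested.

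HSPA1A and HSPA1B rose from ES to day 4 in KO cells under all 3 labels, by 1.05, 1.04 and 1.74 for HSPA1A and by 0.62, 0.71 and 1.85 for HSPA1B under IWP2, CT0.4 and CT1.0. In WT cells only HSPA1A under IWP2 passed (0.56 ± 0.14, adjusted p = 0.00345), and it ended without line 2 in ES cells (0.0883). In KO cells the HSPA1B call under IWP2 ended without line 26 in ES cells or line 48 on day 4 (adjusted p = 0.0709 and 0.112), and the other 5 held. From day 4 to day 8 the pair fell under CT1.0 in KO cells, by 0.55 for HSPA1A and 1.03 for HSPA1B on the log2 scale, and rose in the other 5 pairs of genotype and label, by 0.44 to 1.07 and by 0.62 to 1.18. Of these rises, those in WT under CT0.4 held with each library left out in turn and after scaling, while those in WT under CT1.0 and that of HSPA1A in KO under CT0.4 (0.31, adjusted p = 0.122) ended after scaling. In the other 4 pairs the HSPA1A rise ended without line 26 on day 4 or 48 on day 8 in KO under IWP2 (adjusted p = 0.0917 and 0.106), any of the 4 libraries in KO under CT0.4 (0.0774 to 0.123), line 2 on day 4 or 1 or 2 on day 8 in WT under IWP2 (0.0583 to 0.0783) and line 1 on day 4 or 2 on day 8 in WT under CT1.0 (0.0526 and 0.0658). The HSPA1B rise ended without line 26 on day 4 or 26 or 48 on day 8 in KO under IWP2 (0.0591 to 0.156), line 48 on either day in KO under CT0.4 (0.0533 and 0.0855), line 2 on either day in WT under IWP2 (0.0583 and 0.0621) and line 1 on day 4 or 2 on day 8 in WT under CT1.0 (0.0664 and 0.0943). In KO under CT1.0 the HSPA1A fall ended without line 26 on day 4 or on day 8 (adjusted p = 0.0911 and 0.110), and that of the sum was -0.80 ± 0.13 (adjusted p = 0.000730). DNAJB1 fell with them in KO under CT1.0 (-0.55 ± 0.12, adjusted p = 0.00669), a call that likewise ended without line 26 on day 4 or day 8 (0.0772 and 0.111), and rose in WT under CT1.0 (0.66 ± 0.12, adjusted p = 0.00143), which held with each library left out in turn and was 0.38 after scaling (adjusted p = 0.0387). GADD45A rose from day 4 to day 8 in all 6 pairs, by 0.90, 1.21 and 0.89 in KO and by 1.56, 1.71 and 1.73 in WT under IWP2, CT0.4 and CT1.0. The call in KO under CT1.0 ended without line 48 on day 4 or line 26 on day 8 (adjusted p = 0.0510 and 0.0583), and the other 5 held.

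**Figure D3:**
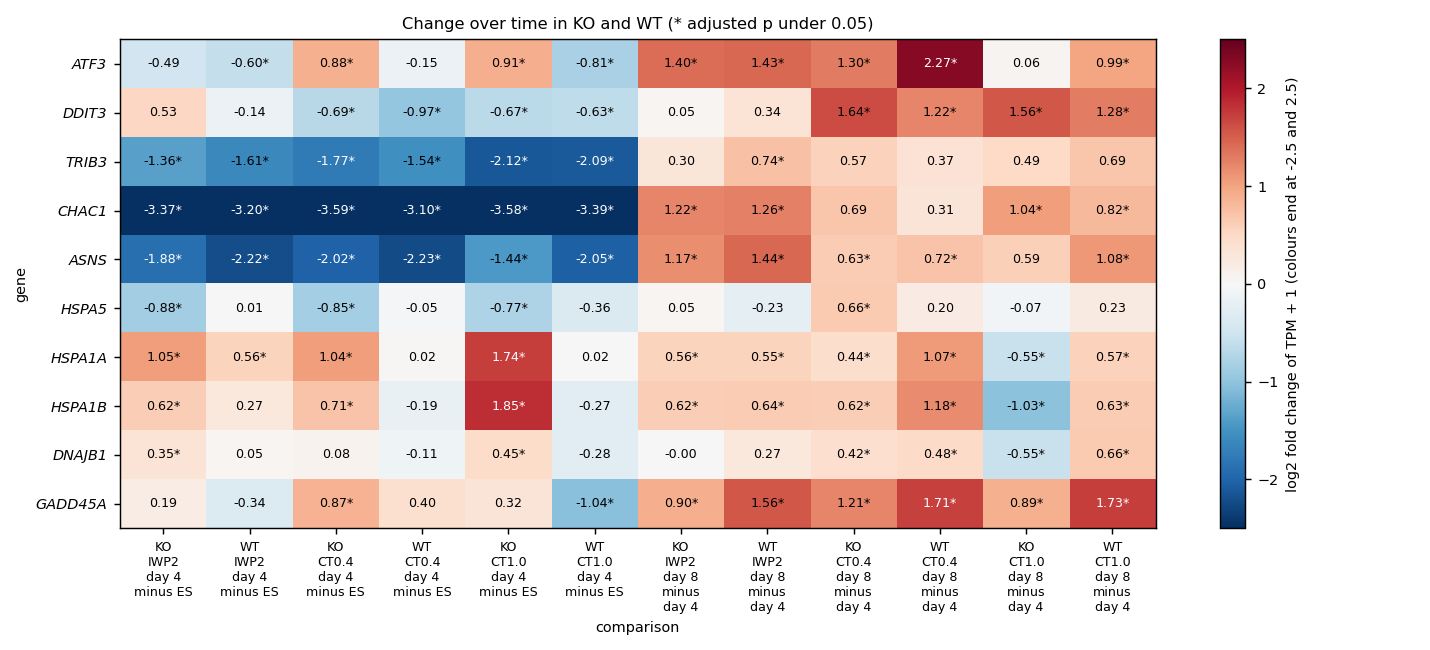
Change over time (colour, log2 of TPM + 1) of the 10 genes (rows) from ES to day 4 and from day 4 to day 8 (columns) for each genotype and label, with called cells starred. CHAC1, ASNS and TRIB3 fall from ES to day 4 in all 6 columns, and HSPA1A, HSPA1B and DNAJB1 fall from day 4 to day 8 in KO under CT1.0 alone.

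Some pairs of the 10 genes moved alike over the groups, with no sharp border between sets. Across the 14 group means on the log2 scale, Pearson's r was 0.94 between TRIB3 and CHAC1, 0.91 between CHAC1 and ASNS, and 0.81 between TRIB3 and ASNS. Without the ES groups, over the 12 group means of days 4 and 8, these were 0.79, 0.86 and 0.54. ATF3 and GADD45A had r = 0.93 over both the 14 and the 12 groups, and HSPA1A and HSPA1B 0.94 and 0.96, where the paralogs share sequence. Over the 12 groups the next in order included ATF3 with HSPA1B (0.72) and HSPA1A (0.71), DDIT3 with CHAC1 (0.69), TRIB3 (0.68) and ASNS (0.65), HSPA1A with DNAJB1 (0.67) and TRIB3 with GADD45A (0.66), all above TRIB3 with ASNS. These are descriptions over groups that share lines and libraries, and no test is given. By the same measure over 14 group means, the genes most like each member among 19968 candidates were PLSCR1, SEC24D and HLA-C for CHAC1 (0.98, 0.97 and 0.97), SEC24D, COL1A1 and NANP for ASNS (0.96, 0.95 and 0.95) and NDUFS5, LRR1 and CNIH4 for TRIB3 (0.97, 0.97 and 0.96). They were IDS, AHNAK and CH17-340M24.3 for ATF3 (0.96, 0.94 and 0.93), PNRC2, CYB5R1 and SSXP10 for DDIT3 (0.88, 0.88 and 0.87) and HINT3, RPS18P9 and SELENOK for GADD45A (0.96, 0.96 and 0.95). For the chaperones they were ZNF593, ERICH5 and CALR for HSPA5 (0.92, 0.88 and 0.88), ZNF91, PCDHB3 and ACTR1B for HSPA1A (0.96 each), RP11-122K13.12, COG7 and HSPA1A for HSPA1B (0.95, 0.94 and 0.94), and LINC01337, RP11-819C21.1 and AC008993.2 for DNAJB1 (0.90, 0.86 and 0.86).

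**Figure D4:**
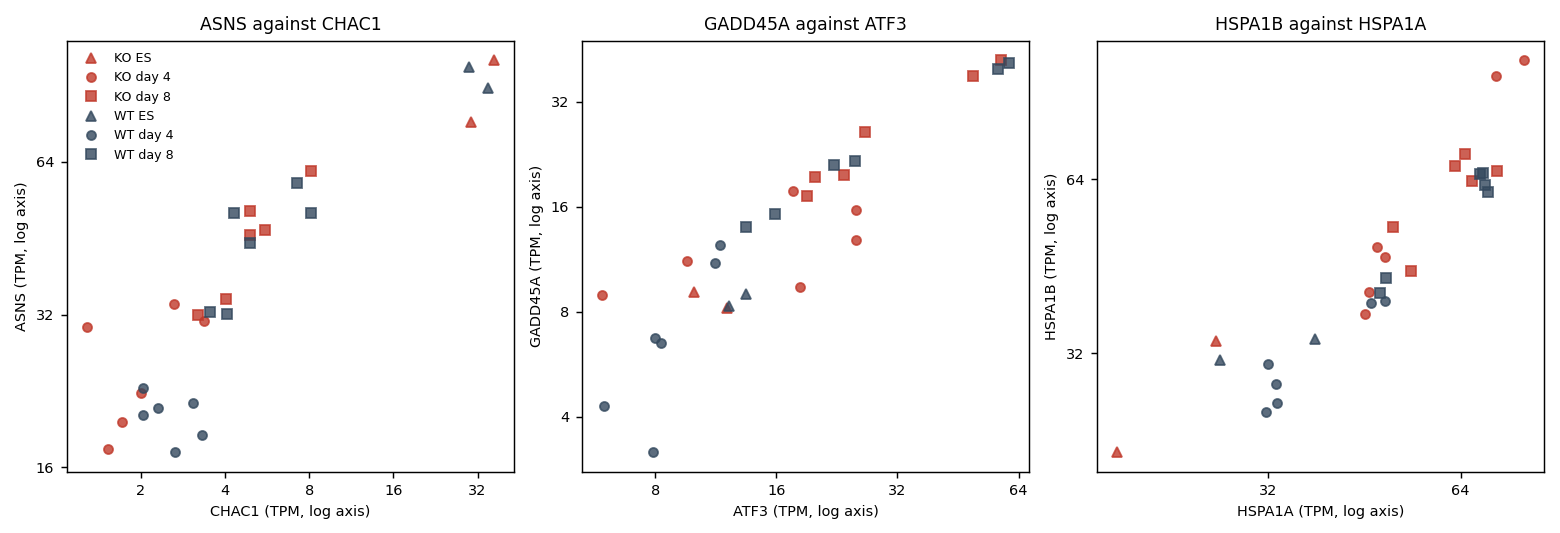
TPM of a pair of genes in each of the 28 libraries, both axes on a log scale. ASNS and CHAC1 are both highest in the 4 ES libraries, ATF3 and GADD45A are both highest under CT0.4 on day 8, and HSPA1A and HSPA1B have their highest mean in KO under CT1.0 on day 4.

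Other genes of the same pathways were counted in 6 lists that hold none of the 10. Of 37 tested ATF4 targets and amino acid genes, 28, 28 and 29 fell from ES to day 4 in KO under IWP2, CT0.4 and CT1.0, with 2, 1 and 2 higher, and 27, 28 and 28 fell in WT, with 2, 0 and 1 higher. Their median changes ran from -1.09 to -0.85, where those of all genes ran from -0.05 to 0.09. SLC7A5, a subunit of the large neutral amino acid transporter, was at 7.93 to 9.35 TPM in KO and 8.39 to 9.45 TPM in WT under CT0.4 on day 4, against 89.2 to 116 TPM in KO and 69.6 to 102 TPM in WT ES cells. The changes of -3.42 in KO and -3.10 in WT both held with each library left out in turn. Of the 6 eIF2 kinase and phosphatase genes, 4 fell under each label in KO and 3, 4 and 4 in WT, among them EIF2AK4 (GCN2), the sensor of uncharged tRNA, by 1.39 on the log2 scale in KO under CT0.4 (adjusted p = 2.31e-09). Of 23 ER chaperone genes, 14, 15 and 16 fell in KO under the 3 labels and 6, 4 and 12 in WT. Of all tested genes, 15.3%, 16.9% and 18.4% were called lower in KO under IWP2, CT0.4 and CT1.0. In WT these shares were 14.9%, 17.7% and 20.8%, so the 4 of 23 ER genes under CT0.4 in WT are near the share of all genes.

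Between KO and WT under CT1.0 on day 4 the lists were mixed, and several of their calls turned on scaling. Of all tested genes 14.9% were called in this comparison, and 12.4% were called higher in KO. In the heat shock list of 24, 5 rose and 2 fell in KO, with a median difference of 0.06 where all genes had 0.19. Scaling made this 3 higher and 7 lower, and with any 1 library left out, line 26 or 48 of KO or line 1 or 2 of WT, 2 to 4 were higher and 1 lower. HSPA6, an HSP70 gene that is almost silent without stress, was at 2.92 and 4.45 TPM in KO and listed at 0 in both WT libraries, and at no more than 0.487 TPM in the other groups but KO under CT1.0 on day 8, where it was at 1.06 and 1.29 TPM. HSPA6 is counted among the 5 that rose. It reached 1 TPM only in KO libraries under CT1.0, so it passed the filter on low values only through cells where it is high. Its call is therefore no support for a rise there. Like the HSPA1 pair it has close relatives among which reads may be split. FKBP4, an HSP90 co-chaperone, was at 83.2 and 89.5 TPM in KO and at 34.3 and 38.6 TPM in WT, a difference of 1.22 (adjusted p = 3.22e-05). The FKBP4 call held with each of the 4 libraries left out in turn. Of the 37 ATF4 targets 8 were higher and 4 lower, with a median of -0.04, and 6 were higher and 14 lower after scaling. STC2, a secreted glycoprotein, was at 26.4 and 27.2 TPM in KO and at 3.57 and 4.38 TPM in WT, a difference of 2.49 (adjusted p = 0.000291). DDIT4, an inhibitor of mTORC1, was at 465 and 501 TPM in KO and at 30.6 and 42.4 TPM in WT under CT0.4, a difference of 3.71 (adjusted p = 0.000259). Both held with each library left out in turn, while of the 37 tested only 4 to 6 were higher and 0 to 2 lower under CT1.0 with any 1 library left out, line 26 or 48 of KO or line 1 or 2 of WT.

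The immediate early genes, which respond within minutes to growth and stress signals as ATF3 can, had the largest share called of the 6 lists between KO and WT under CT1.0 on day 4. Under CT1.0 on day 4, 10 of 14 were higher in KO and 1 lower, with a median difference of 0.86, and 9 and 1 after scaling. Of all tested genes, 12.4% were called higher in KO there and 3.67% under CT0.4 on day 4. EGR1 was at 9.60 and 16.0 TPM in KO and at 2.09 and 2.54 TPM in WT, a difference of 2.02 (adjusted p = 0.00240), and JUN was at 27.6 and 28.3 TPM in KO and at 9.98 and 10.2 TPM in WT under CT0.4, a difference of 1.38 (adjusted p = 0.000491). MYC was lower in KO under CT1.0 (-1.32, adjusted p = 0.00875), a call that ended without line 26 of KO or line 1 of WT. With any 1 library left out, line 26 or 48 of KO or line 1 or 2 of WT, 5 to 7 of the 14 were higher under CT1.0 and 0 or 1 lower. Under CT0.4, 5 were higher and 0 lower, which became 2 higher with any 1 of its 4 libraries left out. Of 22 p53 targets and GADD45 relatives, 8 were higher and 1 lower under CT1.0 on day 4, with a median of 0.47, 3 and 1 after scaling, and 3 or 4 higher with any 1 library left out. GADD45B, the paralog of GADD45A, was at 4.41 and 4.49 TPM in KO and at 0.475 and 0.547 TPM in WT, a difference of 1.85 (adjusted p = 7.27e-05), which held. GADD45G, the other paralog, went the opposite way (-1.23, adjusted p = 0.0207), a call that ended without line 26 of KO or line 1 or 2 of WT. The ER list of 23 had 3 higher and 2 lower, which scaling made 0 and 10 and leaving out any 1 library 0 to 2 and 1, and none of the 6 eIF2 kinase and phosphatase genes was called. In ES cells and under IWP2 on day 4 and day 8, limma called none of the 126 tested list genes between KO and WT, while from 0 to 6 of each list had an unadjusted p under 0.05.

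On day 8 under CT1.0 most calls in the lists were lower in KO, as were 2779 of the 3989 calls over all genes. Those 2779 are 9.96% of all tested genes. Of the 37 ATF4 targets 3 were higher and 10 lower in KO, with a median of -0.26 where all genes had -0.02, and 3 and 8 after scaling. The ER list had 0 higher and 6 lower, which scaling made 0 and 3. SDF2L1, a cofactor of HSPA5 in the ER, was at 9.44 and 15.04 TPM in KO and at 28.9 and 31.8 TPM in WT, a difference of -1.28 (adjusted p = 0.000363) that held with each library left out in turn. The heat shock list had 3 higher and 8 lower, among them HSPH1, an HSP110 chaperone (-0.86, adjusted p = 0.0264), which ended without line 26 of KO or line 1 or 2 of WT. After scaling 6 were higher and 6 lower. The immediate early list had 1 higher and 3 lower, and the p53 list 2 and 3. With any 1 library left out, line 26 or 48 of KO or line 1 or 2 of WT, 1 to 10 of the ATF4 targets, 1 to 5 of the ER genes and 2 to 8 of the heat shock genes were lower, and in both the immediate early and the p53 list 0 to 1 were higher and 0 to 2 lower.

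**Figure D5:**
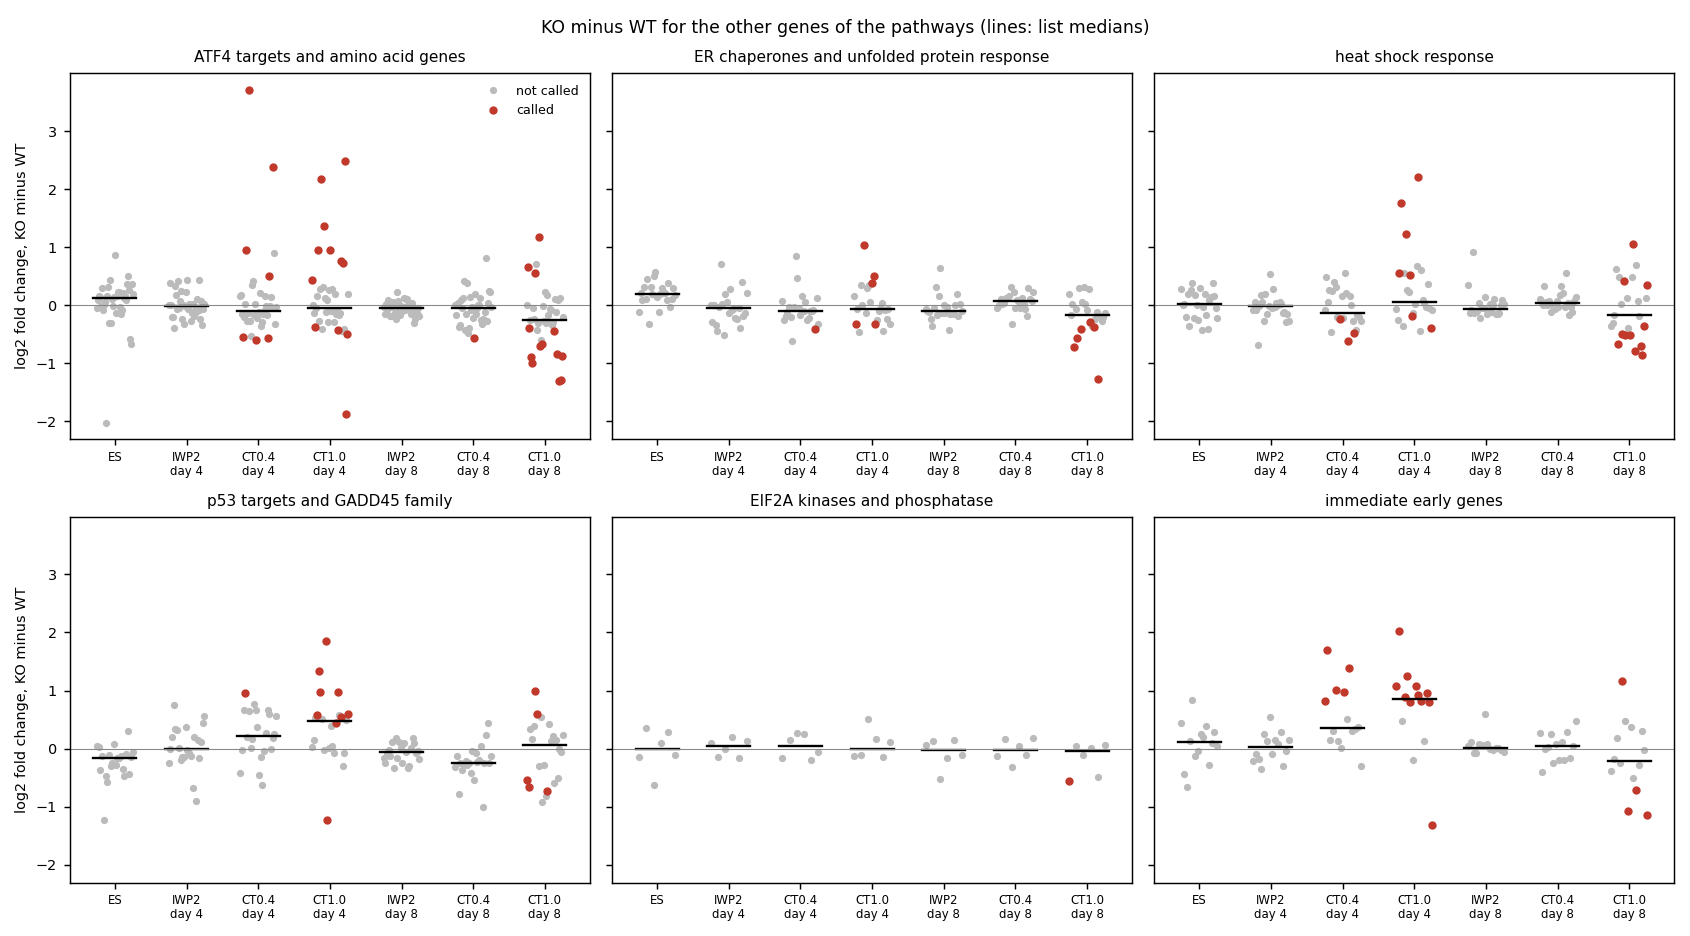
KO minus WT difference (y axis, log2 of TPM + 1) of each gene of the 6 lists in the 7 conditions (x axis), with called genes in red and the median of each list as a line. Of the 14 immediate early genes 10 are red above 0 under CT1.0 on day 4, and under CT1.0 on day 8 the ATF4, ER and heat shock lists have 10, 6 and 8 red points below 0.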

How the data were processed

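The values were made by the authors, who deposited a table of TPM per gene for 28 libraries, 2 in each of 14 groups. CASAVA 1.7, Salmon 0.8.2 and the build hg38 are listed in the submitters' processing notes. Which annotation release was used and what each tool did are not given in the sources used here. Sample labels name 2 sequencing platforms without saying which library used which, so no batch could be fitted, and TPM gives no depth.

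Genes with at least 1 TPM in at least 2 libraries were tested, 27912 of 58219. log2(TPM + 1) was fitted with limma 3.58.1 (R 4.3.3, intensity trend) to the 14 group means over all 28 libraries, with 14 residual and 2.76 prior degrees of freedom and adjustment within each of 36 comparisons. Line means had 6 residual degrees of freedom. An exact permutation test of 2 against 2 cannot go below p = 0.333. The script was tested on simulated data. Gene positions came from GENCODE 29, by ID without version. Results were recomputed with median-ratio scaling, a pseudocount of 0.1, no filter on low values, a replicate block, no trend with robust variances, a fit to the libraries compared, each library left out in turn, and the 4 WT day 4 CT libraries left out. Same-numbered libraries deviated together with r from -0.0572 to 0.204 in KO, over 0.1 in 8 of 21 pairs of groups, and from -0.0937 to 0.0783 in WT, 0 of 21, so the block is an alternative only.

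The text names the 10 members, SOX1, list genes from the called ones with the largest changes (up to 4 per list and family of comparisons) and the 3 genes most like each member. Members and lists were chosen with earlier results of these data known. Figures were drawn with matplotlib 3.10.9.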

Additional observations from a re-analysis of the deposited data

Results flagged for a closer look

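Each result here is a KO minus WT difference (log2 of TPM + 1) that differed between labels or days by a limma test of the interaction itself, with 2 libraries in each of the groups.

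On day 4 the difference was larger under CT1.0 than under IWP2 for HSPA1B by 1.77 (adjusted p = 0.000427), for ATF3 by 1.61 (adjusted p = 0.00674) and for HSPA1A by 1.23 (adjusted p = 0.00179), where 5.09% of tested genes were called. The KO minus WT differences of HSPA1B were 1.86 under CT1.0 and 0.09 under IWP2, and those of ATF3 1.52 under CT1.0 and -0.09 under IWP2.

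Under CT1.0 the difference changed from day 4 to day 8 by -1.65 for HSPA1B (adjusted p = 0.000640), by -1.21 for DNAJB1 (adjusted p = 0.00114), by -1.12 for HSPA1A (adjusted p = 0.00353) and by -0.84 for GADD45A (adjusted p = 0.0466), where 7.56% of tested genes were called. The GADD45A call ended after scaling and without any of 6 of the 8 libraries. DNAJB1 is the one of these whose KO minus WT difference was called on both days with opposite signs, 0.51 on day 4, which did not hold after scaling, and -0.70 on day 8, which did. Neither call held in fits to the libraries compared alone. The WT libraries of CT1.0 on day 4, which enter all 7 results, stood apart from the rest in the number of genes at 1 TPM. Their part in these results was not tested. Within KO cells on day 4, HSPA1A and HSPA1B rose from IWP2 to CT1.0 by 0.69 and 1.23. These differences use none of those libraries, but their p-values draw on the spread within all 28 libraries. In fits to the libraries compared alone, 1 of the 14 calls between labels in KO over both days remained.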

How the results depend on the processing

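No called result for the 10 genes changed sign under the alternatives run. Of 126 calls over all comparisons, 69 held with each library left out in turn, 99 after median-ratio scaling, 124 with the replicate block and 42 in fits to the libraries compared alone, where 2 residual degrees of freedom remain for a pair of groups. Between KO and WT in the 7 conditions, 9 calls became 2 in such fits and 6 to 11 with a library left out. Between labels in WT, 12 became 4 in such fits, 6 after scaling and 7 to 11 with a library left out, and in KO 14 became 1 in such fits and 11 to 13 with a library left out. Over time, 37 calls in WT became 18 in such fits and 31 to 37 with a library left out, and 45 in KO became 14 and 39 to 44. The 7 interaction calls became 6 to 8 with a library left out. Without the 4 WT day 4 CT libraries the counts were 1 for KO against WT, 5 for labels in WT, 11 for time in WT and 0 for interactions, with fewer comparisons left by construction. Over the comparisons that remain, the counts with all libraries were 1, 6, 12 and 0. The 2 calls on line means became 1 without the filter, 1 without the trend, and 0 after scaling, with the replicate block, in fits to the libraries compared, without those 4 libraries and with any line left out. With the replicate block the counts were 9 between genotypes, 13 and 15 between labels in WT and KO, 37 and 47 over time in WT and KO, and 7 interactions, so the block moved only the count on line means by over 1.5 times. The cause of these changes was not tested. With 2 libraries a group and no known depth, small differences of low genes such as TRIB3 and DDIT3 may be missed here.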
